A study of Saccharomyces cerevisiae with 6 samples.

Results

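The positions described here are all those of the yeast 35S rRNA gene at which the last base of the nascent RNA is G or C. They were taken from the base listed for each position, without use of any measured value. They number 3088 of the 6858 positions of the gene (45.03%), of which 1807 are G and 1281 are C. NET-seq sequences nascent RNA held in the purified polymerase from its 3′ end, so each read marks the base added last. The occupancy of a position is its reads per 1000000 reads that the library has on the gene up to position 6739 (rpm). In assembly R64 the gene is RDN37-2, on chromosome XII, minus strand, 460712 to 467569, and the authors added the counts of both of its copies.

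RNA polymerase I (Pol I) transcribes the 35S gene, whose product is cut into 18S, 5.8S and 25S rRNA, while the external (ETS1, ETS2) and internal (ITS1, ITS2) spacers are removed. Spt4 and Spt5 form a conserved elongation factor that binds transcribing polymerases over the cleft that holds the DNA. G and C pair through stronger hydrogen bonding than A and U, and the bases just added lie in the RNA:DNA hybrid inside the enzyme, where pairing bears on how readily a polymerase pauses or slides back. The last base itself is the newest end of that hybrid, and the next base is the one about to be added.

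There were 3 libraries of the spt4△ strain and 3 of WT, described as biological triplicates, from Saccharomyces cerevisiae grown at 30 °C to an OD600 of 0.3. Both strains carry the same mutant alleles of ADE2, URA3, TRP1, LEU2, HIS3 and CAN1, and in both Pol I was captured through an HA and His tag on its subunit Rpa135. The spt4△ strain has spt4△::HIS3 and the tag marked by URA3. The WT strain has the tag marked by TRP1, a deletion of chromosomal RPA190 marked by HIS3 and a plasmid with RPA190, so these differences cannot be told apart from that of SPT4. RPA190 encodes the largest subunit of Pol I. Reads on the gene, recovered from the rpm, were 307372 to 482329 per library in spt4△ and 5545592 to 10024580 in WT. The median G or C position held 30 to 46 reads in spt4△ libraries and 504.5 to 866 in WT libraries. Between 134 and 207 of the 3088 positions had under 3 reads in spt4△ libraries, against 8 to 17 in WT libraries. A single C, the base 3020 at the start of ITS2, had no read in any library, so 3087 of the 3088 positions were tested.

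The positions below are some of those with high values or large changes described further on. Each is given as RNA in RefSeq assembly R64, 5′ to 3′ on the minus strand, with 15 bases on each side, and the capital marks the last base of the RNA at that position. Positions are counted from the start of the gene.
Position 107, ETS1, chrXII:467448-467478: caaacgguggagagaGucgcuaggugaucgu
Position 335, ETS1, chrXII:467220-467250: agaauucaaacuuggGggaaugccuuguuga
Position 437, ETS1, chrXII:467118-467148: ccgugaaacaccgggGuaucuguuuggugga
Position 623, ETS1, chrXII:466932-466962: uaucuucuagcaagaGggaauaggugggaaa
Position 6646, 25S, chrXII:460909-460939: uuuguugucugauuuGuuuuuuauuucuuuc
Position 296, ETS1, chrXII:467259-467289: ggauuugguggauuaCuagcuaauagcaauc
Position 538, ETS1, chrXII:467017-467047: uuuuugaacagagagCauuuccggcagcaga
Position 5094, 25S, chrXII:462461-462491: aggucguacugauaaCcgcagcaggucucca
Position 6318, 25S, chrXII:461237-461267: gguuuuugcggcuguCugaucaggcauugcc

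The first comparison asked whether loss of Spt4 changed how much of the signal lay at G and C. Positions with a last G or C held 40.6%, 40.1% and 40.3% of the reads on the gene in spt4△ libraries. In WT libraries they held 40.04%, 40.17% and 41.0%. The libraries overlapped, with a difference of -0.067 percentage points and a two-sided exact permutation p of 0.9, where 0.1 is the smallest p that 3 libraries against 3 can give. G held 22.0% ± 0.167 in spt4△ and 21.9% ± 0.905 in WT (SD, n = 3 each), below its 26.3% of the positions. C held 18.3% ± 0.425 in spt4△ and 18.5% ± 0.388 in WT, close to its 18.7% of the positions. The share that changed lay in the other bases: A held 29.4% ± 1.14 in spt4△ and 34.3% ± 0.138 in WT, and U held 30.3% ± 0.940 in spt4△ and 25.3% ± 0.420 in WT, both without overlap (p = 0.1 each by the exact permutation test).

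The 2 positions of highest rpm in spt4△ were looked at apart. Position 6399, a U in 25S, took 3.84% of the rpm in spt4△ and 0.583% in WT, and position 5094, a C, took 0.777% in spt4△ and 0.0404% in WT. Without these positions the share of G or C was 41.5% ± 0.484 in spt4△ and 40.6% ± 0.488 in WT, a difference of 0.858 points without overlap (exact permutation p = 0.1). The share of C without them was 18.4% ± 0.580 in spt4△ and 18.6% ± 0.401 in WT, with overlap. The difference at U was then 2.89 points, with 27.7% ± 0.616 in spt4△ and 24.8% ± 0.353 in WT, instead of 5.02 points, and that at A -3.75 points instead of -4.95, both still without overlap.

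**Figure D1:**
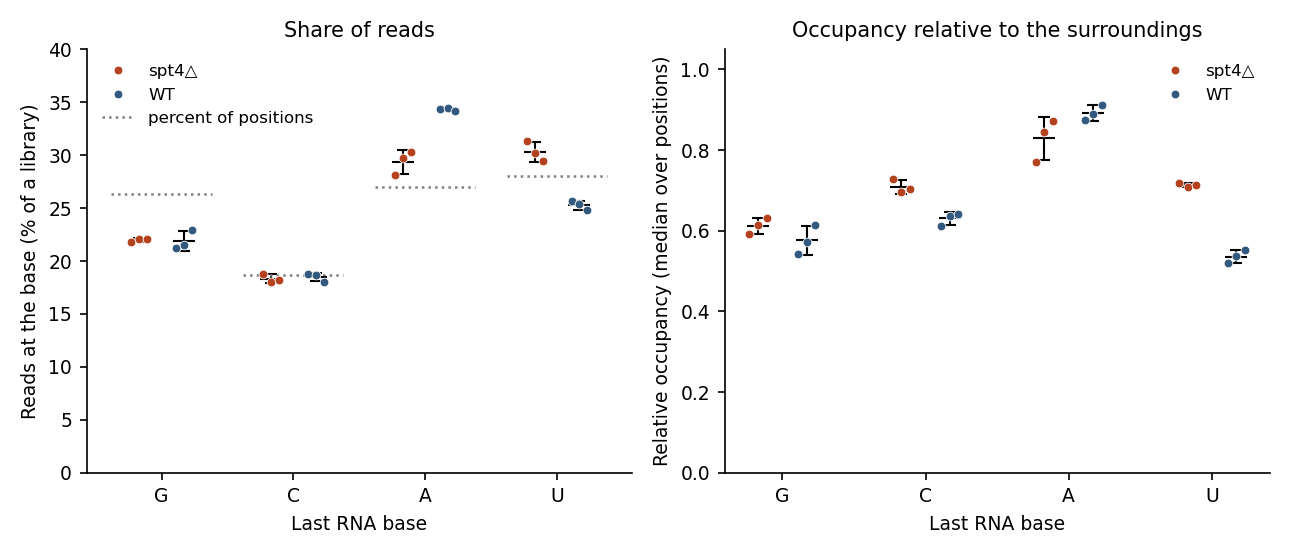
Share of each library's reads on the gene (left, %) and median relative occupancy (right) by the last RNA base. Relative occupancy is occupancy over the mean of the surrounding 200 positions. Points show libraries, bars mean and SD of 3, and dotted lines each base's share of positions. The shares of G and C overlap between spt4△ and WT, while C on the right sits at 0.696 to 0.728 in spt4△ and 0.613 to 0.642 in WT.

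To set each position against its own stretch of the gene, its rpm was divided by the mean rpm of the 100 positions on each side, and the median over positions gave 1 value per library. This relative occupancy at C was 0.728, 0.696 and 0.703 in spt4△ libraries, against 0.613, 0.637 and 0.642 in WT libraries. Every spt4△ library lay above every WT library at C, with a log2 ratio of 0.17 (exact permutation p = 0.1, 0.15 adjusted over the 3 comparisons). At G it was 0.593, 0.613 and 0.631 in spt4△ libraries, against 0.543, 0.573 and 0.614 in WT libraries, which overlapped (log2 ratio 0.087, exact permutation p = 0.3, 0.3 adjusted). The median over all positions moved the same way as C, with 0.711 ± 0.00995 in spt4△ and 0.641 ± 0.0212 in WT, a log2 ratio of 0.15. Divided by that median of the same library, C differed by a log2 of 0.019 with overlap (exact permutation p = 0.9), and G by -0.063 with overlap (p = 0.2). G or C as 1 class was 0.649 ± 0.00537 in spt4△ and 0.600 ± 0.0262 in WT (log2 ratio 0.11, exact permutation p = 0.1), but lower by -0.035 once divided by the median of all positions, in both cases without overlap. The higher C value also lost its separation when the mean over positions (log2 0.037, exact permutation p = 0.4) or the median of the surroundings (log2 0.013, p = 0.8) was used.

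Against A of the same library, G and C were low in both strains. The log2 ratio of the median at G to that at A was -0.43 ± 0.049 in spt4△ and -0.63 ± 0.058 in WT. For C over A it was -0.22 ± 0.124 in spt4△ and -0.50 ± 0.017 in WT. G also lay below C, by -0.21 ± 0.076 in spt4△ and -0.13 ± 0.059 in WT. These 3 ratios, and that of G or C to A or U, were below 0 in 6 of 6 libraries (exact permutation p = 0.03125, the smallest possible for 6 libraries, 0.0469 adjusted over 6 ratios). The ratio to A was nearer to 0 in spt4△ than in WT for G (a difference of 0.20) and for C (0.28), in each case without overlap (exact permutation p = 0.1, 0.15 adjusted).

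The ratio to U went the other way. In spt4△ libraries G over U was -0.28, -0.21 and -0.17 on the log2 scale, against 0.066, 0.090 and 0.16 in WT libraries, so that G lay below U in every spt4△ library and above it in every WT library. C over U was 0.021, -0.023 and -0.020 in spt4△ libraries, against 0.24, 0.24 and 0.22 in WT libraries. Both differences, -0.32 for G and -0.24 for C, came without overlap (exact permutation p = 0.1, 0.15 adjusted). As a joint class, G or C against A or U gave -0.24 ± 0.027 in spt4△ and -0.20 ± 0.035 in WT, with overlap.

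Among the 2.5% of positions with the highest rpm (171 in each library), G made up 16.4% ± 0.585 in spt4△ and 10.9% ± 2.36 in WT, without overlap (exact permutation p = 0.1). C made up 17.0% ± 1.55 in spt4△ and 17.5% ± 2.34 in WT. Ranked by relative occupancy, C made up 18.5% ± 1.88 in spt4△ and 14.8% ± 1.22 in WT, again without overlap, and G 14.2% ± 2.36 in spt4△ and 15.01% ± 1.22 in WT. In both strains G was thus rarer among the highest positions than its 26.3% of the gene, and which of the bases differed between strains depended on the ranking.

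By region, 7 of the 14 differences came without overlap, 6 of them higher and 1 lower in spt4△ (smallest adjusted exact permutation p 0.2). The lower one was G in ETS1, the 5′ external spacer transcribed before 18S. Its median over 176 positions was 0.307, 0.338 and 0.326 in spt4△ libraries, against 0.437, 0.452 and 0.524 in WT libraries, a log2 ratio of -0.54. Each spt4△ library was below each WT library, and the ratio lay between -0.71 and -0.49 in the 8 other ways of computing it. U in ETS1 was 0.405 ± 0.071 in spt4△ and 0.201 ± 0.0059 in WT, and A was 0.429 ± 0.071 in spt4△ and 0.584 ± 0.00874 in WT, both without overlap. In other regions A was lower without overlap in 18S (log2 ratio -0.098) and ITS1 (-0.43). U was higher without overlap in 18S (0.28), ITS1 (0.44), 5.8S (0.48), ITS2 (1.16) and 25S (0.26). C in ETS1 overlapped, at 0.272 ± 0.036 in spt4△ and 0.289 ± 0.020 in WT.

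In the mature rRNAs the medians were higher in spt4△ for G in 18S (0.692 ± 0.00583 in spt4△, 0.637 ± 0.035 in WT), G in 25S (0.679 ± 0.023 in spt4△, 0.608 ± 0.037 in WT) and C in 25S (0.751 ± 0.021 in spt4△, 0.679 ± 0.019 in WT). These 3 moved with all positions: over the median of their own region they differed by log2 values of 0.055, 0.020 and 0.0034, all with overlap. C in 5.8S, with 36 positions, was 0.958, 0.980 and 1.064 in spt4△ libraries, against 0.725, 0.774 and 0.744 in WT libraries. Over the median of 5.8S it was higher by a log2 of 0.19 without overlap, but the mean over positions gave -0.22, in the other direction. C in ITS2 (0.344 ± 0.054 in spt4△, 0.235 ± 0.00830 in WT) and C in ETS2 (0.157 ± 0.032 in spt4△, 0.088 ± 0.017 in WT) were also higher, and over the median of its region C in ITS2 overlapped (log2 0.11), while C in ETS2 was higher by 0.59 and G in ITS1 lower by -0.24, without overlap (exact permutation p = 0.1 each, 0.35 adjusted over 14). C in ETS2 lost its separation with a window of 50 positions (log2 0.081), with a window kept within the region (0.26) and without 10 positions on each side of region borders (0.69). ETS2 has 24 C positions with a median rpm of 3.83, under the 3 reads (6.22 to 9.76 rpm) taken as the floor of an spt4△ library, so its values are near the limit of the depth.

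**Figure D2:**
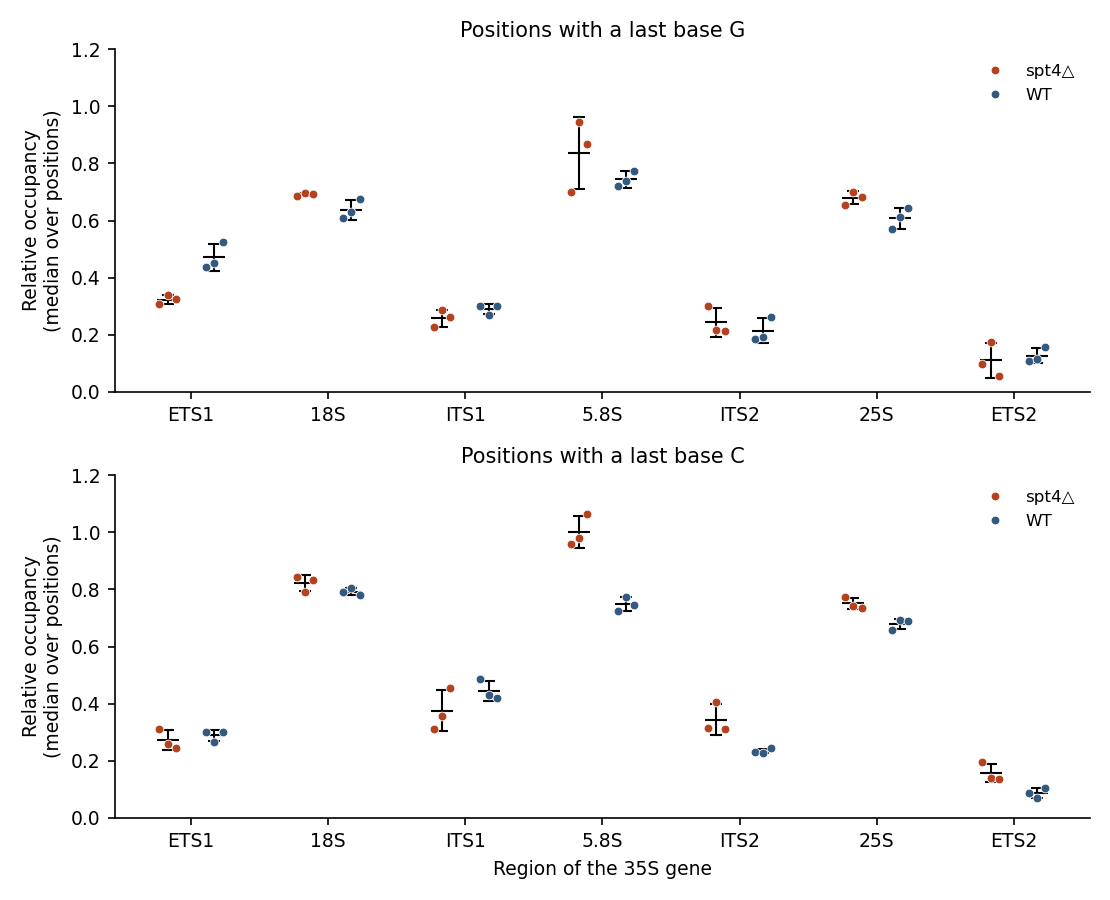
Median relative occupancy of G (upper) and C (lower) positions in the 7 regions of the 35S gene, with points for libraries and bars for mean and SD of 3. G in ETS1 lies lower in spt4△ (0.307 to 0.338) than in WT (0.437 to 0.524), and C in 5.8S higher.

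Within each library, the occupancy of G and C differed with the base beside them. G after G had a relative occupancy of 0.920 ± 0.011 in spt4△ and 0.831 ± 0.090 in WT over 504 positions, whereas G after C, A or U lay between 0.508 and 0.539 in spt4△ and between 0.486 and 0.524 in WT. As a log2 ratio of G after G to G after any other base this was 0.883, 0.749 and 0.782 in spt4△ libraries, against 0.594, 0.685 and 0.815 in WT libraries. It was above 0 in 6 of 6 libraries (exact permutation p = 0.03125, 0.03125 adjusted over 8 contrasts), and the strains overlapped. A previous G went with higher occupancy at the other bases too. The contrast was 0.27 ± 0.070 in spt4△ and 0.35 ± 0.037 in WT for C, and 0.50 ± 0.033 in spt4△ and 0.62 ± 0.083 in WT for A. For U it was 0.49 ± 0.024 in spt4△ and 0.71 ± 0.014 in WT. It was weaker in spt4△ without overlap at A (-0.12) and at U (-0.22), and overlapped at C.

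A next C went with low occupancy in 6 of 6 libraries (exact permutation p = 0.03125 each). Of the neighbours, only a previous G and a next C were set against the other bases in this way. At G and C these had the highest and the lowest medians, so the contrasts are a description. Their p tells that libraries reading the same positions agreed, and does not measure a spread over sequences. For G before C the log2 ratio to G before the other bases was -0.32 ± 0.019 in spt4△ and -0.46 ± 0.057 in WT. For C before C it was -0.17 ± 0.083 in spt4△ and -0.43 ± 0.019 in WT. Both contrasts were weaker in spt4△ without overlap of the libraries, by log2 values of 0.14 and 0.26. A next C went with low occupancy at the other bases too. At A the contrast was -0.36 ± 0.0089 in spt4△ and -0.67 ± 0.037 in WT, weaker in spt4△ by 0.31 without overlap. At U it was -0.18 ± 0.076 in spt4△ and -0.16 ± 0.012 in WT, with overlap.

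Between strains, 7 of the 16 differences by neighbour came without overlap, all 7 higher in spt4△ (smallest adjusted exact permutation p 0.229). The largest of the 7 were at C beside C. C before C was 0.674, 0.661 and 0.606 in spt4△ libraries, against 0.486, 0.505 and 0.512 in WT libraries (log2 ratio 0.37, exact permutation p = 0.1). C after C was 0.767, 0.735 and 0.725 in spt4△ libraries, against 0.575, 0.584 and 0.620 in WT libraries (log2 ratio 0.32, exact permutation p = 0.1). In both every spt4△ library was above every WT library, and this held with the mean over positions (0.50 before C, 0.24 after C) and the median of the surroundings (0.19 and 0.17). The mean before C includes position 5094, at 45.8 times the mean of its surroundings in spt4△ and 1.96 times in WT. That mean was not computed without position 5094. Both classes were still higher once divided by the median of all positions of the library. The log2 values were 0.22 for C before C and 0.17 for C after C, without overlap. Outside the 16, U after C rose more, with 0.805 ± 0.026 in spt4△ and 0.493 ± 0.027 in WT (log2 ratio 0.71, without overlap). U also rose without overlap after A (log2 ratio 0.38), after U (0.35) and after G (0.24), so its rise was not particular to a previous C. A was lower in spt4△ without overlap after G (log2 ratio -0.19) and after C (-0.095), and overlapped after A and after U.

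The other 5 were smaller: G after C (log2 ratio 0.14), G before C (0.19), C after G (0.11), C after A (0.21) and C before U (0.18). None of the 5 remained without overlap once divided by the median of all positions, and C after G and C after A changed sign, with overlap, under the mean over positions (-0.029) and the median of the surroundings (-0.0013). Divided by the median of all positions of the library, G before A was lower in spt4△ by -0.20, with -0.26 ± 0.027 in spt4△ and -0.062 ± 0.028 in WT. G after U was lower by -0.17, C after U by -0.13, G after A by -0.11 and G before G by -0.073, all 5 without overlap (exact permutation p = 0.1, 0.229 adjusted over 16).

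**Figure D3:**
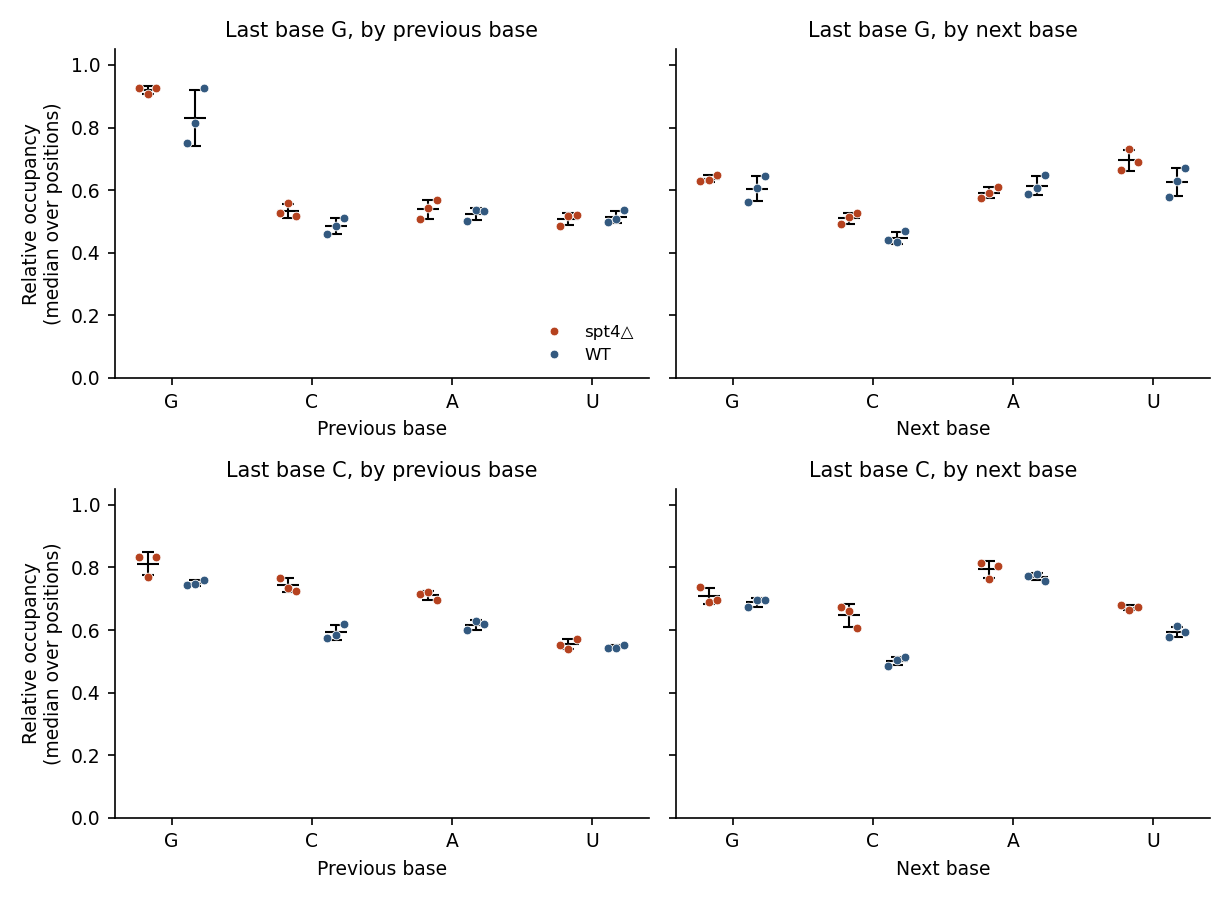
Median relative occupancy of G (upper) and C (lower) positions by the previous base (left) and the next base (right), with points for libraries and bars for mean and SD of 3. G after G stands above G after the other bases in both strains, and C after C and C before C are higher in spt4△ than in WT.

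In runs of 3 or more G, the first base was lower than those that followed it. The first G of a run had a relative occupancy of 0.599 ± 0.037 in spt4△ and 0.582 ± 0.057 in WT (96 positions). G inside a run had 1.07 ± 0.019 in spt4△ and 1.02 ± 0.080 in WT (134 positions), and the last G of a run 1.06 ± 0.076 in spt4△ and 0.907 ± 0.084 in WT. The strains overlapped at the first and inside positions, and at the last G the spt4△ libraries (1.151, 1.015 and 1.023) were all above the WT libraries (0.847, 0.871 and 1.002). In runs of C every place was higher in spt4△: the first C was 0.738 ± 0.018 in spt4△ and 0.550 ± 0.052 in WT (35 positions), C inside was 0.769 ± 0.034 in spt4△ and 0.563 ± 0.020 in WT (39 positions), and the last C was 0.892 ± 0.044 in spt4△ and 0.698 ± 0.079 in WT. With the median of the surroundings the last G (log2 ratio 0.046) and the last C (0.12) overlapped between strains. The last C also overlapped with the mean over positions (0.049), and the last G at a mean of at least 10 rpm (0.23). The median of all positions rose as well (log2 ratio 0.15), and the places in runs were not divided by it. Of the 8 differences by place, 5 came without overlap, all higher in spt4△ (smallest adjusted exact permutation p 0.16).

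The number of G and C among the 9 previous bases, the span of the hybrid behind the last base, went with the occupancy of G and C in both strains. At C it was 0.582 ± 0.00514 in spt4△ and 0.547 ± 0.00401 in WT with 0 to 3 of them, 0.745 ± 0.020 in spt4△ and 0.663 ± 0.026 in WT with 4 to 5, and 0.844 ± 0.045 in spt4△ and 0.729 ± 0.00915 in WT with 6 or more. At G the same classes gave 0.499 ± 0.022, 0.661 ± 0.020 and 0.743 ± 0.026 in spt4△, against 0.513 ± 0.017, 0.601 ± 0.042 and 0.656 ± 0.051 in WT. Across the 10 next bases the order at C was the opposite: it had 0.797 ± 0.027 in spt4△ and 0.742 ± 0.00901 in WT with 0 to 3 of them, and 0.669 ± 0.022 in spt4△ and 0.606 ± 0.022 in WT with 6 or more. At G the classes of 0 to 3, 4 to 5 and 6 or more gave 0.605 ± 0.019, 0.625 ± 0.020 and 0.592 ± 0.026 in spt4△, against 0.602 ± 0.030, 0.603 ± 0.034 and 0.526 ± 0.033 in WT. Of the 12 differences between strains, 8 came without overlap, all higher in spt4△, the direction in which the median of all positions moved (smallest adjusted exact permutation p 0.15). With the median of the surroundings 5 came without overlap, and only 2 of these were higher in spt4△.

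Position by position, limma on log2(rpm + 1) over the 6848 positions with a read called 744 of the 3087 G or C positions higher in spt4△ and 576 lower, at an adjusted p under 0.05. That is 24.1% higher and 18.7% lower, beside 25.2% higher and 21.0% lower of all positions (46.2% in either direction). At G, 395 of 1807 were higher and 341 lower (21.9% and 18.9%). At C, 349 of 1280 were higher and 235 lower (27.3% and 18.4%). G and C together thus lay near the share of all positions, unlike A (16.7% higher, 32.2% lower) and U (35.1% higher, 14.1% lower). The rpm of the strains did not overlap at 936 positions in the higher and 718 in the lower direction, where over all positions these were 30.7% and 25.9% (56.6% in either direction).

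On the local scale, where rpm + 1 was divided by the mean of the surroundings + 1, limma called 412 G positions higher and 348 lower, and 347 C positions higher and 250 lower, beside 25.8% higher and 21.3% lower of all positions (47.1% in either direction). The counts depended on WT replicate 1. Without it the calls higher at G or C numbered 488, of them 249 at G, and on the local scale 503, of them 267 at G. The calls lower at C on the local scale then numbered 160. Counts over all positions without it are not given here, so whether this loss is particular to G or C was not tested. The counts at G and C depended on scaling as well. Setting the median position of every library equal moved the median log2 change of all positions by -0.13. The share of calls that were higher was then 43.9% at G or C (41.3% at G, 47.0% at C). With the deposited scaling it was 56.4% (53.7% at G, 59.8% at C), beside 54.5% of the calls over all positions. The edgeR test on recovered reads shared 1288 of the 1320 calls at G or C, all 1288 in the same direction.

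The balance of the calls differed with the neighbouring base. Of C after C, 39.1% were called higher and 17.1% lower, and of C before C 35.8% and 13.6%. Of G before C, 27.1% were higher and 9.71% lower. Before A the balance was the opposite, with 17.3% higher and 24.5% lower at G and 18.7% higher and 23.8% lower at C. G after U had 14.8% higher and 20.1% lower. These are counts of positions that share libraries and often adjoin each other, so no test was made between contexts.

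**Figure D4:**
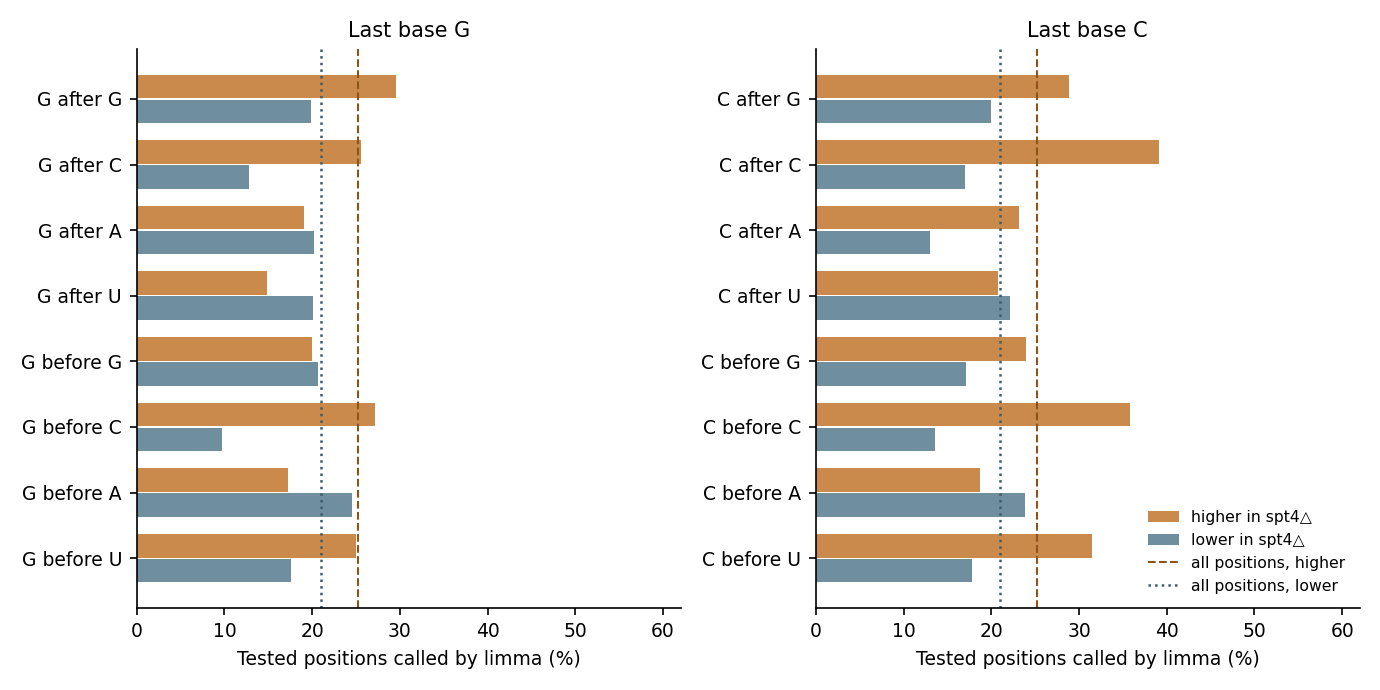
Share of tested positions called higher or lower in spt4△ than in WT by limma (adjusted p under 0.05) for G (left) and C (right) by previous and next base, with lines for all positions (25.2% higher, 21.0% lower). C after C and C before C reach 39.1% and 35.8% higher, and G and C before A have more calls lower than higher.

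By region, the calls at G and C are set beside all bases of the same region. In 18S, 162 of 459 G were higher and 61 lower (35.3% and 13.3%), and 124 of 348 C were higher and 39 lower (35.6% and 11.2%), beside 34.1% higher and 15.7% lower of all positions in 18S. In 25S, 166 of 966 G were higher and 197 lower (17.2% and 20.4%), and 153 of 662 C were higher and 164 lower (23.1% and 24.8%), beside 19.6% and 25.5% of all positions in 25S. In ETS1, 42 of 176 G were higher and 36 lower on the rpm scale (23.9% and 20.5%), beside 36.5% and 14.9% of all positions in ETS1, but 25 were higher and 83 lower on the local scale, so 47.2% of G in ETS1 lay lower relative to their surroundings, beside 31.9% of all positions in ETS1 and 21.3% of all positions of the gene. C in ETS1 had 40 higher and 5 lower of 117 on the rpm scale (34.2% and 4.27%) and 22 higher and 26 lower on the local scale.

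Called positions often adjoined positions called in the same direction. The base after a G called higher was itself called higher in 60.5% of cases and lower in 5.06%, and the base after a C called higher in 66.8% and 2.58%. The base after a G called lower was called lower in 60.9% and higher in 5.59%, and that after a C called lower in 54.5% and 7.23%. Over all positions these shares were 25.2% and 21.0%.

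The positions named next were picked by their values, as the highest in relative occupancy or the largest changes for each base, so their changes are given as a description. The highest G in both strains was position 6646, the last but one base of 25S. It had 2978, 2837 and 2535 rpm in spt4△ libraries, against 5765, 4529 and 4087 rpm in WT libraries, 21.5 and 32.9 times the mean of its surroundings (log2 change in rpm -0.77 ± 0.24 SE, limma adjusted p = 0.0196). All spt4△ libraries were lower, but the adjusted p of limma was over 0.05 without spt4△ replicate 2 (0.0541), spt4△ replicate 3 (0.0840), WT replicate 1 (0.0803) or WT replicate 2 (0.0522).

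Most other named G lay in ETS1. Position 107 had 801, 809 and 840 rpm in spt4△ libraries, against 37.9, 35.5 and 46.4 rpm in WT libraries, the largest rise among named G (log2 4.33 ± 0.13 SE, limma adjusted p = 7.89e-09). Its level was near that of its surroundings in WT (0.884 times their mean) and 10.0 times their mean in spt4△. Position 437, the last of a run of 4 G, had 1342, 1376 and 1579 rpm in spt4△ libraries, against 568, 527 and 618 rpm in WT libraries (log2 1.32 ± 0.13 SE). Position 246 averaged 211 ± 25.6 rpm in spt4△ and 21.8 ± 3.84 rpm in WT (log2 3.23 ± 0.20 SE). On the local scale the rises were smaller, 0.63 ± 0.15 SE at 437 and 2.59 ± 0.12 SE at 246. At position 630 the spt4△ libraries had 99.6, 467 and 35.8 rpm, against 16.1, 6.85 and 9.19 rpm in WT libraries. That rise (log2 3.44 ± 0.70 SE) rested on unlike libraries, and without spt4△ replicate 2 it was 2.45.

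The other named falls at G lay in the spacers. Position 335, in the middle of a run of G, had 39.4, 34.2 and 29.3 rpm in spt4△ libraries, against 214, 236 and 366 rpm in WT libraries (log2 -2.92 ± 0.21 SE), from 19, 15 and 9 reads in spt4△. Its neighbours 334 and 336, also G, fell with it, by -2.17 and -1.94. Position 496 averaged 82.5 ± 26.1 rpm in spt4△ and 415 ± 131 rpm in WT (log2 -2.33), position 623 averaged 190 ± 22.4 rpm in spt4△ and 510 ± 104 rpm in WT (-1.40), position 2659 in ITS1 averaged 138 ± 22.9 rpm in spt4△ and 406 ± 117 rpm in WT (-1.52), and position 3150 in ITS2 averaged 54.2 ± 21.8 rpm in spt4△ and 281 ± 71.2 rpm in WT (-2.42).

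Beside the falls at 623 and 496 there were rises at G that followed within 2 bases, picked after their values were seen. Position 624, the base after 623, averaged 382 ± 91.1 rpm in spt4△ and 92.1 ± 24.2 rpm in WT (log2 2.05 ± 0.20 SE, limma adjusted p = 2.1e-05), and position 625 averaged 131 ± 18.9 rpm in spt4△ and 32.7 ± 13.7 rpm in WT (2.04). The highest base of that run of G was thus 623 in WT and 624 in spt4△. Position 498, 2 bases after 496, averaged 503 ± 25.1 rpm in spt4△ and 92.1 ± 26.6 rpm in WT (2.47 ± 0.17 SE, limma adjusted p = 2.58e-06).

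Among C, position 5094 in 25S stood highest in spt4△. It had 6930, 8165 and 8218 rpm in spt4△ libraries, against 477, 415 and 322 rpm in WT libraries (log2 4.27 ± 0.18 SE, limma adjusted p = 8.24e-08). It was 45.8 times the mean of its surroundings in spt4△ and 1.96 times in WT, while position 5095, the next C, averaged 106 ± 12.1 rpm in spt4△ and 158 ± 15.2 rpm in WT. From the 11th to the 15th base after position 5094 the RNA reads CUCCA, the letters that follow the 8 variable bases of the ligated linker. On the sense strand CUCCA stands at that distance from 5 of 6842 positions (0.0731%), 3 of them G or C. Both positions of highest rpm in spt4△ are among the 5, since the U at 6399 also stands before CUCCA, with a log2 change of 2.72 (limma adjusted p = 0.00224). The A at 5922 was lower in spt4△, by -1.07 (limma adjusted p = 4.49e-05), and the G at 1276 and at 2392 had log2 changes of -0.26 and -0.024 that did not pass the test (limma adjusted p = 0.295 and 0.944). The part of these letters in the values at 5094 and 6399 was not tested.

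The largest rise at C was position 538 in ETS1, with 487, 371 and 374 rpm in spt4△ libraries, against 6.58, 7.03 and 11.7 rpm in WT libraries (log2 5.48 ± 0.24 SE, limma adjusted p = 8.24e-08). WT held 66, 39 and 103 reads there. The G before it, position 537, rose with it, with 131 ± 7.68 rpm in spt4△ and 13.0 ± 2.69 rpm in WT. Position 296, also in ETS1, averaged 267 ± 48.6 rpm in spt4△ and 27.7 ± 8.90 rpm in WT (log2 3.25 ± 0.23 SE). On the local scale the rises were 4.77 at 538 and 2.57 at 296.

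The 3 highest C positions of WT, at 3015, 5338 and 6318, fell in spt4△. Position 3015, near the 3′ end of 5.8S, had 1068, 852 and 814 rpm in spt4△ libraries, against 2883, 2314 and 2244 rpm in WT libraries (log2 -1.44 ± 0.17 SE). It remained 9.09 times the mean of its surroundings in spt4△, against 17.6 times in WT. Position 5338 in 25S averaged 820 ± 104 rpm in spt4△ and 1879 ± 177 rpm in WT (-1.20). Position 6318 in 25S averaged 735 ± 92.5 rpm in spt4△ and 2180 ± 349 rpm in WT (-1.56). On the local scale the falls were -0.97 at 3015, -0.99 at 5338 and -2.37 at 6318. Position 2911 in 5.8S, among the highest C of spt4△, averaged 765 ± 47.0 rpm in spt4△ and 1516 ± 113 rpm in WT (-0.98). The remaining large falls at C, positions 5977 (-1.61) and 6180 (-1.60), lay in 25S as well.

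**Figure D5:**
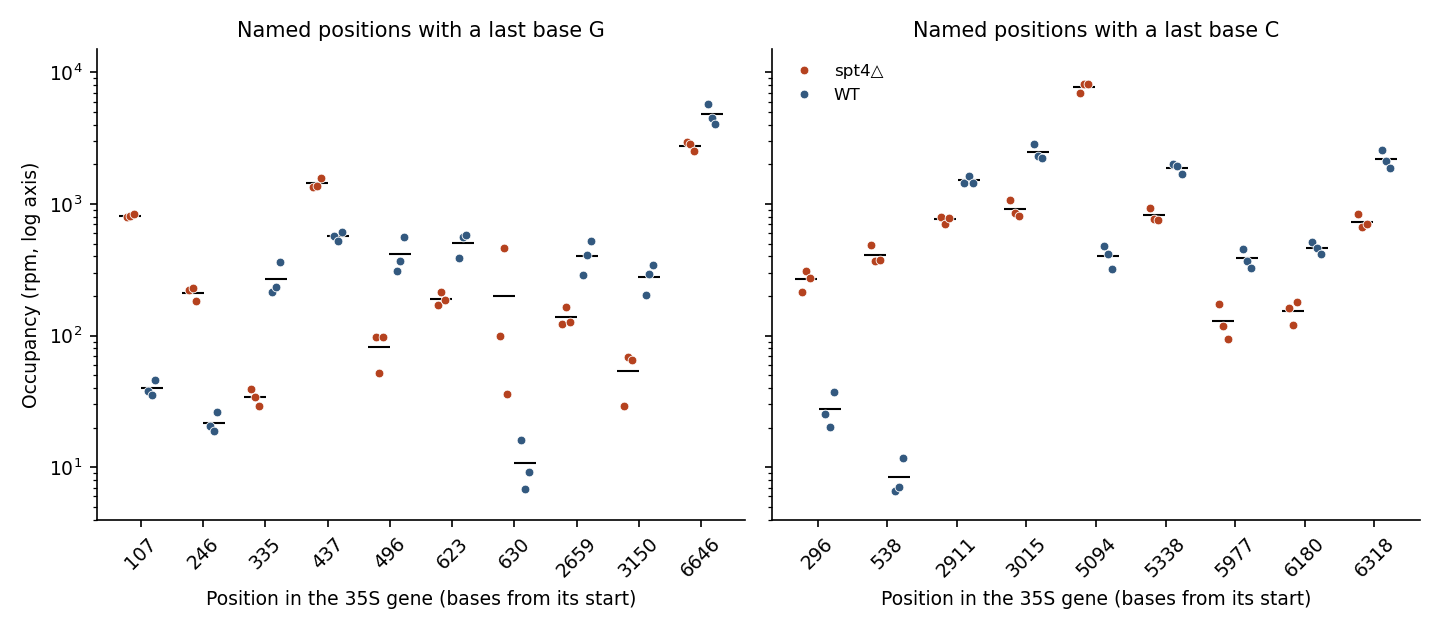
Occupancy (rpm, log axis) at the 10 named G positions (left) and the 9 named C positions (right), with points for libraries and dashes for the mean of 3. Positions 107, 246, 296, 538 and 5094 lie far higher in spt4△ than in WT, while 335, 496, 3150 and 6318 lie far lower, and the spt4△ libraries differ widely at 630.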

How the data were processed

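NET-seq libraries of Pol I from 3 spt4△ and 3 WT cultures were compared over the 35S gene. Per the study's methods, the authors removed PCR duplicates by molecular identifier, trimmed linkers, aligned reads to the yeast genome, counted read ends by position and added both copies of the gene. Tools listed in the submitters' processing notes were bcl2fastq 2.20.00, cutadapt 1.12, STAR 2.7.1a, SAMtools 1.6, bedtools 2.26.0 and R 3.6.2, with build R64. The deposited values are rpm, scaled by the authors so that each library sums to 1000000 up to position 6739. The authors' means and medians, the deposited p-value, ratio and coefficient of variation (listed as a score) per position were not used. Of 41148 values, 11 were not whole multiples (within 0.01) of the value of 1 read, and the recovered reads gave the depth. The listed bases equalled the R64 minus strand at all positions (0 mismatches).

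Relative occupancy used windows of 200 positions, shorter at the ends of the gene, and the median over positions as 1 value per library. Libraries were compared by two-sided exact permutation tests, and called different only where they did not overlap. Each position was fitted in limma 3.58.1 under R 4.3.3 (a trended eBayes after lmFit, pseudocount 1, no filter), with p adjusted by Benjamini-Hochberg over all 6848 positions, after a check on simulated data. Named positions were, for each base, the 3 highest in relative occupancy per strain and the 3 largest changes each way among called positions above the median rpm whose libraries did not overlap. The positions, classes and contexts were chosen with earlier results of these data known. Ratios to the median of all positions were added after seeing the data. Alternatives used edgeR 4.0.16 and DESeq2 1.42.0 on recovered reads, other windows, summaries, pseudocounts, filters, scalings and depths (WT thinned to spt4△, 10 draws), a replicate block, and 1 library left out in turn. The other steps ran in Python 3.11.15 (scipy 1.17.1, pandas 2.3.3, numpy 2.4.6). SDs and SEs are over libraries, the floor of 3 reads covers counting error only, and the sequencing run of each library is not given in the sources used here.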

Additional observations from a re-analysis of the deposited data

Results flagged for a closer look

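The ratio of relative occupancy at G to that at U had opposite signs in the strains. On the log2 scale it was -0.219 ± 0.052 in spt4△ and 0.104 ± 0.047 in WT (SD, n = 3 each), below 0 in 3 of 3 spt4△ libraries and above 0 in 3 of 3 WT libraries. A two-sided exact permutation test over the libraries gave p = 0.1, the smallest it can give, so the difference was not tested beyond that limit. Relative occupancy was 0.612 at G and 0.713 at U in spt4△, against 0.577 at G and 0.536 at U in WT.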

How the results depend on the processing

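A difference whose libraries overlapped was given no direction, and changes of sign between such values are not listed. Of the alternatives, 1330 kept direction and call, 39 lost the call, 54 gained one, 31 turned the direction with a call on at least one side and 7 counts moved by over 1.5 times. The cause of these shifts was not tested. For the 19 named positions, 281 of 285 alternatives kept the call and 4, all at position 6646, lost it. Log2 ratios of spt4△ to WT follow. Relative occupancy at C was 0.037 with the mean over positions and 0.013 with the median of the surroundings, and at G or C -0.0079 and 0.0027. At G it was 0.11, without overlap, when the top 0.5% of positions were left out of the surroundings, an alternative chosen after seeing the data. With the mean over positions the direction turned for C in ETS1 (0.24), C in 5.8S (-0.22), G in ITS2 (-0.48), G before G (-0.11), C after G (-0.029), C after U (-0.16), C before A (-0.19), G with 0 to 3 (-0.074) or 4 to 5 (-0.13) G or C in the next 10, C with 4 to 5 (-0.032) or 6 or more (-0.00019) in the previous 9, C with 0 to 3 (-0.11) or 4 to 5 (-0.027) in the next 10, the first G of a run (-0.36) and G outside runs (-0.050). With the median of the surroundings it turned for G in ITS2 (-0.35), G after A (-0.066), G before G (-0.080), C after A (-0.0013), G with 0 to 3 (-0.15) or 4 to 5 (-0.062) in the next 10, C with 0 to 3 in the previous 9 (-0.060) or the next 10 (-0.083), G inside a run (-0.18), G outside runs (-0.056) and C outside runs (-0.019). G in ETS2 was 0.71 at a mean of at least 10 rpm. Differences without overlap by neighbour numbered 11 of 16 with a window of 50, and those by content 5 of 12 with the median of the surroundings, 2 of the 5 higher in spt4△. The share of reads by sums of log2 values gave -0.020 at G and -0.0073 at G or C, and the share at G or C was 0.046 without the top 0.5% of positions and 0.030 without the 2 highest positions in spt4△, the last chosen after seeing the data.

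With 1 library left out in turn, relative occupancy ranged over 0.045 to 0.13 at G, 0.15 to 0.18 at C and 0.082 to 0.14 at G or C, and the share of reads over -0.015 to 0.041 at G and -0.0088 to 0.0082 at G or C. Limma then called 249 to 407 positions higher at G and 488 to 757 at G or C, and on the local scale 267 to 426 at G and 503 to 774 at G or C higher, with 160 to 259 at C lower. Same-numbered libraries of the strains did not deviate together (correlations -0.053 to 0.021), nor did those of unlike number (-0.050 to 0.032). With few reads per position in spt4△, such correlations cannot tell whether same-numbered libraries were prepared together. The main tests treated the libraries as unpaired. With a replicate block limma called 758 higher and 594 lower at G or C, and relative occupancy at G was 0.088, with all 3 differences above 0. Depth limits the low positions of ITS1, ITS2 and ETS2 in spt4△. With WT thinned to the depth of spt4△, limma called 612.5 positions higher and 475.5 lower at G or C (median of 10 draws). For these alternatives the counts over all positions are not given here.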
